A study of Mus musculus with 15 samples.

Results

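The promoters of mouse zinc finger protein genes were compared between TKO embryonic stem (ES) cells, which lack the DNA methyltransferases Dnmt1, Dnmt3a and Dnmt3b, and wild-type J1 ES cells. They comprised every probe set on the promoter arrays whose gene name begins with Zfp and a number, with Zfp42 left out. These were 157 gene names with 849 probes, of 16510 gene names in all, and 142 of the 157 also had a probe on the expression array. Methylated DNA immunoprecipitation (MeDIP), in which an antibody pulls down methylated DNA, had been hybridised to a 2-array promoter set, with 7 arrays for part 1 and 7 for part 2. Every MeDIP array carried TKO DNA labelled with Cy5 and J1 DNA labelled with Cy3, with no dye swap, and per the labels each immunoprecipitation started from 2 µg of DNA. RNA had been compared on 3 arrays, of which replicate 2 was dye-swapped. Both lines were grown without feeder cells for 2 passages in serum with LIF, the series design gives 7 replicates from different passages and the same cultures for the expression arrays. Replicates 1 and 3 of part 1 nevertheless carry the same J1 passage in their labels. No other clone of either line was analysed here, so the p-values measure the spread between these arrays and cover a single mutant and a single wild-type line.

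Most genes named Zfp encode proteins with tandem zinc fingers that read specific DNA sequences, and they form the largest family of transcription factors in mammals. Many carry a KRAB domain, which recruits the corepressor Trim28 and through it the histone methyltransferase Setdb1, heterochromatin proteins and histone deacetylases. In ES cells such proteins silence transposable elements, and Zfp57 keeps DNA methylation on imprinted genes. KRAB zinc finger genes arose by tandem duplication and lie in clusters, while other members of the name family stand alone. Some array names are old. By accession, 32 of 146 array entries with a single name had another current RefSeq symbol, and 28 of these symbols no longer begin with Zfp. A changed symbol does not by itself mean another function, and several are zinc finger genes under a new name, such as Zkscan5 and Zscan12. Other changed symbols are those of Zfp162 (Sf1, a splicing factor), Zfp312 (Fezf2, a regulator of cortical neurons), Zfp364 (Rnf115, a ubiquitin ligase) and Zfp289 (Arfgap2, which acts on Arf GTPases). The name Zfp422 stood for 2 loci, one of which now carries the symbol Zfp955a, so the 157 names made 158 entries.

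The sequences of 6 promoters are shown because their genes span the MeDIP results below: Zfp111, Zfp94 and Zfp318 are among the highest ratios, Zfp617 and Zfp46 among the lowest, and Zfp57 lay at 0. Each is the 250 bases before the RefSeq start in build GRCm38.p6, read along the gene, with every CG in capitals. They lie at chr7:24208150-24208399 on the minus strand for Zfp111, chr7:24316667-24316916 on the minus strand for Zfp94, chr17:46383516-46383765 on the plus strand for Zfp318, chr8:71922575-71922824 on the plus strand for Zfp617, chr4:136284426-136284675 on the plus strand for Zfp46 and chr17:37003416-37003665 on the plus strand for Zfp57. The array's own probe positions come with no named build, so the windows were not laid over the probes.
Zfp111: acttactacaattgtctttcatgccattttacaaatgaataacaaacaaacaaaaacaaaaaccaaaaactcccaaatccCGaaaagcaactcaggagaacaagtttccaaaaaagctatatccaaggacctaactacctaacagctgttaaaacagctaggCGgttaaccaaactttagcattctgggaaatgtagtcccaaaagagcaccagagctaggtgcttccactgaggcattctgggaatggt
Zfp94: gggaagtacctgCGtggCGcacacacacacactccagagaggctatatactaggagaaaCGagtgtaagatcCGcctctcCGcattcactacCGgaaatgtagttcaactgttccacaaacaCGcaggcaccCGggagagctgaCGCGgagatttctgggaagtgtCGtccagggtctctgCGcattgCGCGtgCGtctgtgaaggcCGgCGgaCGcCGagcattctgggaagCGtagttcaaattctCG
Zfp318: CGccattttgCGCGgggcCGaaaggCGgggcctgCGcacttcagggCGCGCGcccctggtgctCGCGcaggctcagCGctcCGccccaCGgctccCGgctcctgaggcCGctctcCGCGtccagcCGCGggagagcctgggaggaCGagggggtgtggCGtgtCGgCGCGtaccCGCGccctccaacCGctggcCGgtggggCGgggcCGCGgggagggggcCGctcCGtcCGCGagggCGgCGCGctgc
Zfp617: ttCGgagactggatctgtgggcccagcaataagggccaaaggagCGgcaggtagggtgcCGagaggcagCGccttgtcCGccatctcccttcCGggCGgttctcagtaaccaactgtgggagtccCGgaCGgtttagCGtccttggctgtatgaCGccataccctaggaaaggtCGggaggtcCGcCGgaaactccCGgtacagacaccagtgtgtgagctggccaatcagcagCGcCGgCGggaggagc
Zfp46: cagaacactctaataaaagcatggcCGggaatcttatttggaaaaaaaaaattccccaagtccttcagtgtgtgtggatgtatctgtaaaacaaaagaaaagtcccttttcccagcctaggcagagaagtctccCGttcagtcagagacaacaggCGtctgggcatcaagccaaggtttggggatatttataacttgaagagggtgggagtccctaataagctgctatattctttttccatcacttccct
Zfp57: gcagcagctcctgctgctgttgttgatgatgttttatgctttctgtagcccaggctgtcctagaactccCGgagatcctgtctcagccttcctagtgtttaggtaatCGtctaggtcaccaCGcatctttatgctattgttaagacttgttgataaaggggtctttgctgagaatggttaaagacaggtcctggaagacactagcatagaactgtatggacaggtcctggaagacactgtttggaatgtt

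Within both sides of the MeDIP result the CG content of these windows differed. CG, the site of DNA methylation in mammals, occurred 2 times before Zfp111, 21 times before Zfp94 and 39 times before Zfp318. It occurred 18 times before Zfp617 and 3 times each before Zfp46 and Zfp57. Of 27025 RefSeq windows of this length, 1 per gene symbol, 91.7% hold at least 1 CG, and 1.54% hold as many as Zfp318 or more. RefSeq windows matched 115 of the 158 entries (72.8%), fewer than the 80% needed, so the check of CG content between groups of Zfp promoters is void and was not made.

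MeDIP ratios are given as log2 of the labelled TKO over the labelled J1 signal, averaged over the probes of a gene name and centred on each array's median, the same direction as the deposited ratios. A positive value lies on the side labelled TKO. The dye labels leave a doubt about the sides: Asz1, Sycp3 and Dppa3, germ cell or oocyte genes used as checks, lay on the labelled TKO side, at 0.65 ± 0.19, 0.34 ± 0.11 and 0.72 ± 0.15 (SD, n = 7 each), although TKO cells lack the DNA methyltransferases. Neither side is therefore read as the methylated line. Per array and line, between 88.2% and 99.7% of all probes were well above background. Array-to-array correlations over all probes ran from 0.34 to 0.79.

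Most Zfp promoters had a ratio near 0. Of 138 entries with at least 3 probes, 113 (81.9%) had a mean within 0.2 of 0 on the log2 scale, against 76.7% of all 13633 gene name entries tested. The median over Zfp promoters was -0.04, against 0.01 over all entries, and the means ran from -0.39 to 0.68. By limma with Benjamini-Hochberg adjustment over all entries, 33 Zfp promoters (23.9%) passed an adjusted p of 0.05 on the labelled TKO side, against 43 (31.2%) on the other. The background was 31.4% and 25.3% of all entries on the same sides. With the further demand of a log2 size of at least 0.5, 1 Zfp promoter was called on the labelled TKO side, where the background was 2.05%, and none on the labelled J1 side, where it was 0.066%. The lowest Zfp ratio was -0.39, so none could reach that size. The split between the sides depended on the probes used. Restricting each gene to probes well above background in both channels gave 27 calls on the labelled TKO side, against 55 on the labelled J1 side, with a background of 27.1% and 31.6%. Normexp background correction gave 11 against 28, with a background of 13.7% and 15.7%. With only probes within 1000 bp of a start named by the array, the calls were 14 against 53, with a background of 25.7% and 30.7%.

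Zfp654 was the single Zfp promoter past both thresholds. Its log2 ratio was 0.39 on the lowest, 0.72 on the median and 0.91 on the highest of 7 arrays. All arrays lay on the labelled TKO side, and the mean was 0.68 ± 0.17 (SD, n = 7, adjusted p = 7.4e-06 by limma). It lies on chromosome 16 and had 5 probes, of which 60.0% were well above background in both channels on every array. With normexp correction its ratio was 0.04 (adjusted p = 0.88), so the call rested on the processed signals.

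Of the next 7 genes on the labelled TKO side, 5 lay close to other Zfp genes, and Zfp318 and Zfp90 did not. Zfp111 on chromosome 7 had ratios of 0.08, 0.38 and 0.66 on the lowest, median and highest array, a mean of 0.40 ± 0.20 (SD, n = 7, adjusted p = 0.00036), and 0.28 with normexp correction. Zfp9 on chromosome 6 ran from 0.04 over a median of 0.27 to 0.75, with a mean of 0.36 ± 0.25. Zfp84 on chromosome 7 ran from 0.10 over 0.33 to 0.66, with a mean of 0.34 ± 0.19. These 3 promoters were above 0 on all 7 arrays but their size varied widely between arrays. Zfp318, whose protein is needed for IgD expression in B cells, ran from 0.13 over 0.30 to 0.52 and averaged 0.30 ± 0.13, all of its probes being well above background. Zfp445, a KRAB protein that takes part in imprint maintenance, ran from 0.08 over 0.20 to 0.89, with a mean of 0.29 ± 0.28, and the highest value came from replicate 5, the next array being at 0.36. Zfp90 on chromosome 8 averaged 0.27 ± 0.11 and Zfp94 on chromosome 7 averaged 0.25 ± 0.09, both above 0 on every array. Normexp correction left Zfp111, Zfp9, Zfp84, Zfp90 and Zfp94 called, with ratios from 0.10 to 0.28, and ended the calls of Zfp318 at 0.12 (adjusted p = 0.22) and Zfp445 at 0.01 (adjusted p = 0.92).

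On the labelled J1 side the ratios were smaller and the arrays closer together. Zfp617 on chromosome 8 had the lowest value, with -0.44, -0.40 and -0.32 on the lowest, median and highest array. Its mean was -0.39 ± 0.05 (SD, n = 7, adjusted p = 5.8e-06), and it stood at -0.28 with normexp correction. Chromosome 8 as a whole lay on that side: its 707 tested entries had a median of -0.10, against 0.01 over all entries, while the 10 tested Zfp promoters there had a median of 0.02. The part of the chromosome in the ratio of Zfp617 was not tested. Zfp369 on chromosome 13 ran from -0.49 over -0.23 to -0.15, with a mean of -0.26 ± 0.12. Zfp46 on chromosome 4 and Zfp13 on chromosome 17 both averaged -0.24, with SDs of 0.13 and 0.09, and were below 0 on all 7 arrays. Zfp219, a partner of Sox9 in cartilage, also averaged -0.24 ± 0.08, but its nearest probe lay 9484 bp from the annotated start. Rnf115, under its array name Zfp364, averaged -0.22 ± 0.06 over 11 probes. Arfgap2, under the name Zfp289, ran from -0.37 over -0.22 to -0.0020, with a mean of -0.22 ± 0.11. Zfp598, a ubiquitin ligase that acts on collided ribosomes, averaged -0.21 ± 0.05. All 8 of these promoters remained called with normexp correction, at -0.28 to -0.12.

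**Figure D1:**
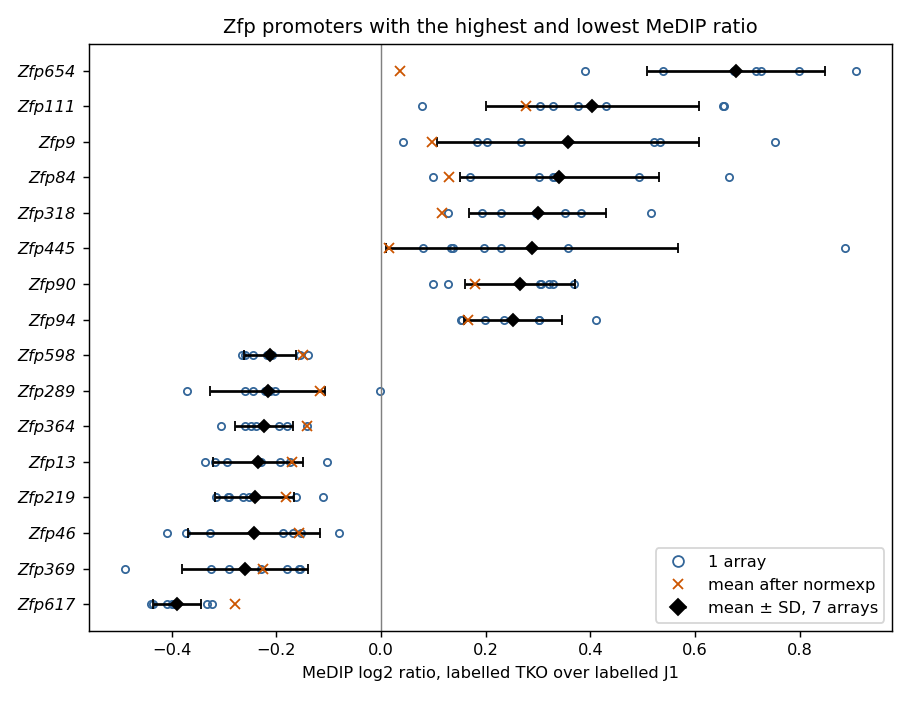
The MeDIP log2 ratio (labelled TKO over labelled J1, x axis) is shown for the 8 highest and 8 lowest Zfp promoters among those with all 7 arrays on one side. Circles are single arrays, diamonds with bars the mean and SD of 7 arrays, and crosses the mean after normexp correction, which for Zfp654 was 0.04 against 0.68.

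Calls on the 2 sides came from different kinds of probe. Among the probes of the 33 promoters called on the labelled TKO side, 83.6% were well above background on every array in both channels and 48.9% lay within 1000 bp of their gene's start. For the 43 promoters called on the labelled J1 side, the shares were 95.8% and 83.5%. Over all probes with a gene name, 87.9% were well above background on every array in both channels. Of the 33, 11 were called on the same side after normexp correction, and 12 changed sign. Of the 43, 24 remained called on the same side and 1 changed sign. A loss of calls was not confined to the Zfp promoters. Over all entries, normexp correction took the called share from 31.4% to 13.7% on the labelled TKO side. On the labelled J1 side that share went from 25.3% to 15.7%. Among 22 labelled TKO calls that still had 3 probes within 1000 bp of a named start, 13 were called on the same side from those probes alone and 4, Zfp496, Zfp406, Zfp639 and Zfp354c, were called on the other side; these 4 were singled out after their values were seen. The part of probe brightness in the calls was not tested beyond these values.

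The same dependence on position was seen probe by probe. Zfp probes within 1000 bp upstream of their own start had a median log2 ratio of -0.08 (379 probes), and those within 1000 bp downstream had -0.11 (196 probes). Farther upstream, between 2500 and 1000 bp, the median was 0.09 (108 probes), and beyond 2500 bp it was 0.15 (68 probes). All probes of the arrays were placed by the nearest start of any gene the array names for the probe. Their medians in these 4 windows, in the same order, were -0.01, -0.07, 0.12 and 0.14, so the rise away from the start was not confined to the Zfp genes. Of the Zfp probes, 471 were annotated as promoter, 71 as divergent promoter, 304 as inside the gene and 3 as downstream.

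**Figure D2:**
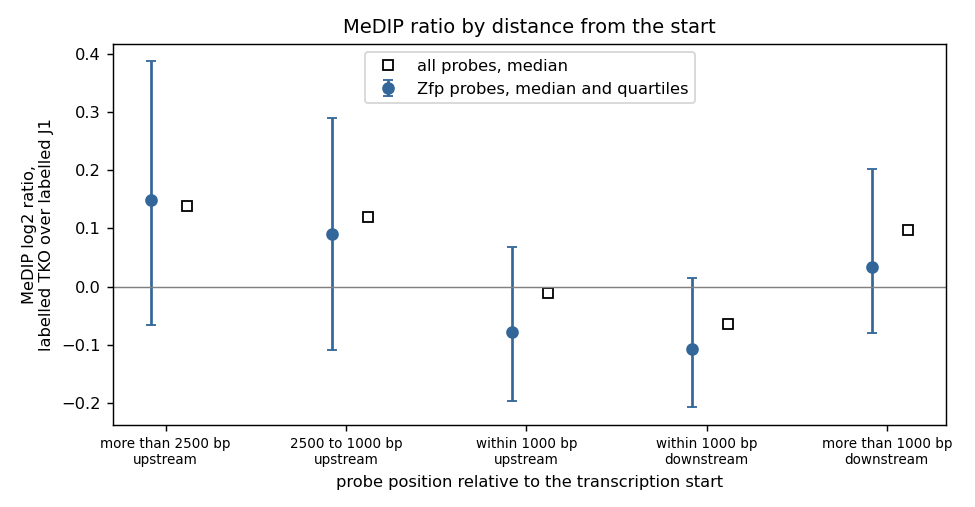
The median MeDIP log2 ratio (y axis) is shown by the distance of the probe from the transcription start (x axis) for Zfp probes, with quartiles as bars, and for all probes. The start is the gene's own for Zfp probes and the nearest named start for all probes. Zfp probes within 1000 bp of the start had medians of -0.08 and -0.11, and those beyond 2500 bp upstream had 0.15.

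Members known for roles in ES cells, cell division or RNA decay had MeDIP ratios within 0.2 of 0, and 4 of the 6 tested were called, where 56.7% of all entries were called on either side. Zfp57, the keeper of imprints, had ratios of -0.12, -0.01 and 0.08 on the lowest, median and highest array, a mean of -0.0013 ± 0.065 (SD, n = 7). Its arrays fell on both sides of 0. Zfp281, a transcription factor of the pluripotency network, averaged -0.04 ± 0.11, with values from -0.25 to 0.09. Zfp462, a large protein needed for normal ES cell chromatin, ran from 0.01 over 0.16 to 0.46 and averaged 0.18 ± 0.15 (adjusted p = 0.011), but 0.05 with normexp correction (adjusted p = 0.13). Zfp207, which acts in spindle assembly, averaged -0.13 ± 0.07 and was called on the labelled J1 side. Zfp36l1 and Zfp36l2, which bind AU-rich mRNAs and speed their decay, averaged -0.14 ± 0.09 and -0.16 ± 0.06, were also called there and were below 0 on all 7 arrays. Normexp correction ended the call of Zfp36l2 (adjusted p = 0.066). Zfp143, an activator that binds many promoters, had 2 probes and was not tested.

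A gene was called clustered when another Zfp gene was tiled within 500 kb, by the array's own positions, and isolated otherwise. This gave 63 clustered and 95 isolated entries, of which 56 and 82 were tested, and the clustered ones formed 19 clusters. The array tiles only part of the family, so an isolated gene may still have an untiled neighbour. On the labelled TKO side the calls numbered 14 of 56 clustered promoters (25.0%) and 19 of 82 isolated ones (23.2%), both below the background of 31.4%. For the labelled J1 side they numbered 9 of 56 (16.1%) and 34 of 82 (41.5%), one below and one above the background of 25.3%. All 7 arrays lay on the labelled J1 side for 3 clustered (5.36%) and 29 isolated promoters (35.4%), against 19.3% of all entries. The difference between these counts was not tested, since genes of a cluster are not independent.

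Per array, the mean ratio of clustered promoters exceeded that of isolated ones on 6 of 7 arrays in each part. On part 1 the clustered mean was 0.03 ± 0.04 and the isolated mean -0.03 ± 0.03, a difference of 0.06 ± 0.05 (SD over 7 arrays) with single arrays from -0.03 to 0.14. On part 2 the means were 0.01 ± 0.04 and -0.02 ± 0.02, a difference of 0.03 ± 0.04 with arrays from -0.04 to 0.06. The exception was replicate 6 in both parts. The part 2 difference was smaller than its spread over arrays, and with normexp correction the differences were 0.01 on part 1 and -0.04 on part 2. On part 2 it was 0.00061 with loess, 0.0038 with probes above background alone and 0.0082 for clusters of at least 3 genes, and on part 1 these settings gave 0.03, 0.05 and 0.06. Clustered genes also had fewer probes well above background, 83.9% against 92.8% for isolated genes, and fewer probes within 1000 bp of the start, 62.5% against 71.3%. With probes within 1000 bp of a named start alone, the difference was 0.01 on part 1 and 0.04 on part 2.

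**Figure D3:**
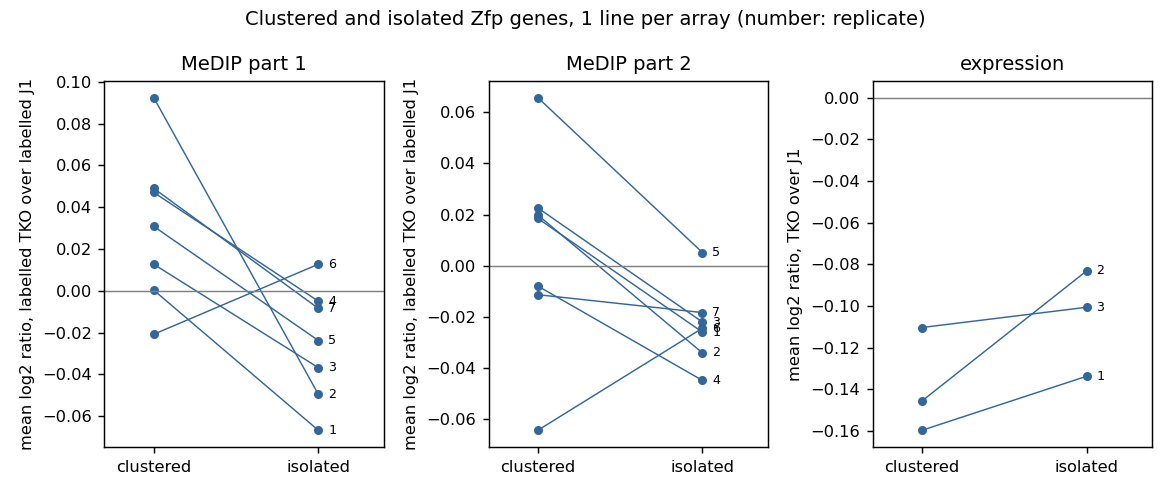
Each line is 1 array and joins the mean log2 ratio (y axis) of clustered with that of isolated Zfp genes, for MeDIP part 1, MeDIP part 2 and expression, on separate scales. MeDIP lines fall from clustered to isolated on 6 of 7 arrays in each part, and the 3 expression lines rise slightly.

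Neighbouring Zfp genes lay on the same side about as often as other neighbours on the arrays. Of 37 neighbouring pairs of tested Zfp genes in clusters, 20 (54.1%) lay on the same side of 0, against 56.4% of 12502 neighbouring pairs of all gene names within the same distance. In the chromosome 7 cluster that runs from Zfp180 to Zfp94 over 236 kb, the 7 promoters had a median of 0.03. Its highest member was Zfp111 at 0.40, and its lowest was Zfp108 at -0.07 ± 0.10 (not called), with Zfp109 between them on the chromosome at -0.03. Of the 7, 3 were called on the labelled TKO side, where the background was 31.4%, and 0 on the other. Besides Zfp111 these were Zfp94 at 0.25 and Zfp180 at 0.11. The other chromosome 7 cluster, from Zfp84 to Zfp146 over 406 kb, held Zfp84 at 0.34 while its 5 other tested promoters ran from -0.08 (Zfp146) to 0.06 (Zfp74). The chromosome 17 cluster from Zfp160 to Zfp52 lay mostly on the labelled J1 side, with Zfp51 at -0.22 ± 0.15, Zfp54 at -0.18 and Zfp53 at 0.01 ± 0.23. On chromosome 13, Zscan12 under its array name Zfp96 averaged 0.20 ± 0.13 and turned to -0.12 with normexp correction, while Zfp184 at the other end stood at -0.04 ± 0.11. The chromosome 11 cluster is 1 of 7 with 3 genes, taken by chromosome order among those with all 3 tested. There Zfp454 averaged -0.11 ± 0.09, and its call was lost (adjusted p from 0.055 to 0.067) without replicate 3, 6 or 7. Its neighbour Zfp2 averaged 0.14 ± 0.06 over 40 probes, which reached 308483 bp from the annotated start.

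**Figure D4:**
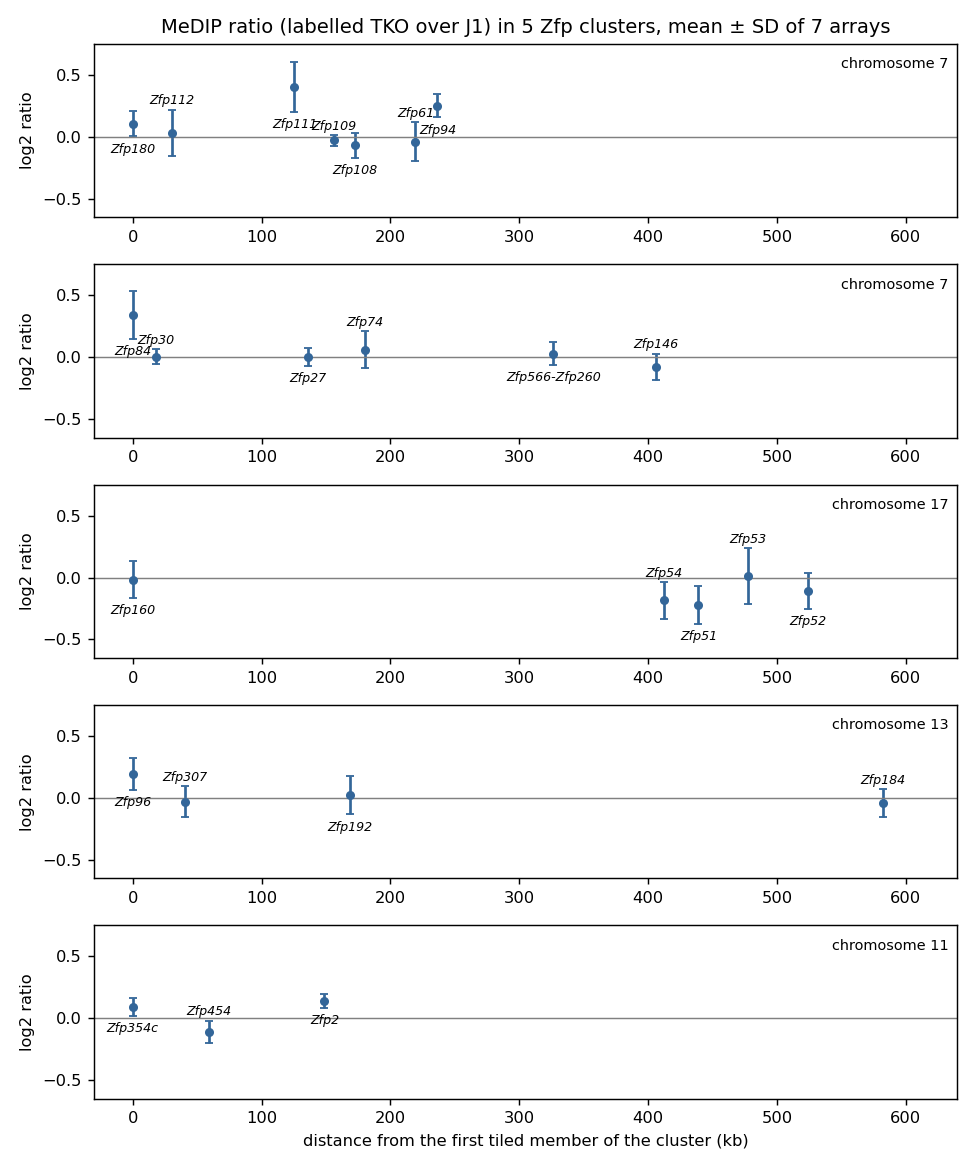
The MeDIP log2 ratio (y axis, mean with SD of 7 arrays) is shown by distance from the first tiled member (x axis, kb) for the tested promoters of the 4 Zfp clusters with more than 3 genes and 1 of the 7 with 3. Zfp111 at 0.40 and Zfp84 at 0.34 are the highest of their clusters. Zfp94, in the cluster of Zfp111, reaches 0.25, and most other promoters of these clusters lie within 0.1 of 0.

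RNA levels of the same genes were compared as log2 of TKO over J1, on normexp-corrected and loess-normalized signals with the brightest probe per gene. The labels do not say which dye each line had, and TKO over J1 is called the likely direction, because the ratios run the same way as the authors' deposited averaged table and the deleted genes come out lower in TKO: Dnmt1 averaged -1.07 ± 0.25 (n = 2), Dnmt3a -2.36 ± 0.18 (n = 2) and Dnmt3b -2.51 ± 0.19 (SD, n = 3). Where their probes lie relative to the deletions was not determined. On replicate 3, 8386 spots were marked uneven and left out, so many genes were measured on 2 arrays. Of the 142 Zfp genes on the expression array, 96 were well above background in at least one line on all 3 arrays and were tested. The other 46 were not, and 12 of them, among them Zfp36l2 and Fezf2 (array name Zfp312), were above background on no array in either line.

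More Zfp genes were lower than higher in TKO cells, and the changes were small. Among the 96, limma called 5 higher (5.21%) and 24 lower (25.0%) at an adjusted p under 0.05, against a background of 16.6% and 16.5% of all 12086 genes tested. The median over Zfp genes was -0.13, against -0.01 over all genes, and 60 of 96 (62.5%) lay below 0, against 51.8% of all. With normexp correction none of the calls reached a 2-fold change. Agilent's processed signals gave larger ratios for some genes, with Zfp536 at -1.24 against -0.61 and Zfp57 at -0.78 against -0.38. By the brightest probe, all 24 lower genes were below 0 on every array that measured them, 12 of them on 3 arrays and 12 on 2. Averaging a gene's passing probes gave 4 higher and 22 lower, against 17.3% and 17.1% of all genes. Of the 24 lower genes, 20 were still called. Zfp655 moved from -0.41 to -0.08, as its 4 passing probes disagree in sign. With Agilent's own processed signals 5 were called higher (5.21%) and 34 lower (35.4%), against 18.1% and 16.5% of all genes. Median centring without loess called 0 higher and 3 lower (3.12%), against 3.09% and 4.85% of all genes, so the share of lower calls was then below that of all genes (0 higher and 19 lower at an unadjusted p under 0.05 in limma). With Agilent's signals and with median centring all 24 lower genes lay below 0, but they had been chosen for lying below 0 on these same arrays. With median centring 77 of 96 Zfp genes lay below 0, and the median over all genes was itself -0.09. The median moved to -0.06 among the Zfp genes measured on all 3 arrays, of which 12 were called lower (18.8%) and 5 higher (7.81%), against 17.2% and 17.4% of all genes measured on 3 arrays. On those genes the share of lower calls was near that of all genes. Among the Zfp genes the filter acted unevenly: 17 passed it through J1 alone and 2 through TKO alone, and 3 of the 24 lower genes passed through J1 alone. The share of all genes that passed through a single line was not determined, so this is not read as particular to the Zfp genes. Leaving out replicate 1 gave 3 higher and 11 lower, against 14.7% and 13.5% of all genes then tested. Leaving out replicate 2 gave 2 higher and 12 lower, against 13.4% and 13.9%. In both cases only the 64 Zfp genes measured on 3 arrays were tested. Genes measured on 2 arrays then have 1 value and no test, which touches the lower genes, while the higher genes were all measured on 3 arrays and those lost were tested and missed the threshold. A further 52 tested Zfp genes without a promoter entry of the same name had 12 lower (23.1%) and 6 higher (11.5%), with a median of -0.07.

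Zfp62 had the lowest ratio. Its normalized log2 intensity was 6.92, 7.07 and 7.86 in TKO cells, against 7.67, 7.68 and 8.66 in J1 cells, in replicates 1 to 3. TKO was below J1 on each array, by 0.72 ± 0.10 on the log2 scale (ratio -0.72, SD, n = 3, adjusted p = 0.00020). Zfp281, the pluripotency network factor, stood at 9.39 and 9.18 in TKO cells, against 10.01 and 9.87 in J1 cells, a ratio of -0.66 ± 0.04 (n = 2, adjusted p = 0.0016 by limma). Zfp219 stood at 10.78 and 10.34 in TKO cells, against 11.41 and 11.10 in J1 cells, a ratio of -0.69 ± 0.09 (n = 2). In both genes each TKO value lay below each J1 value. Zmym3, a chromatin protein under its array name Zfp261, had ratios of -0.59, -0.72 and -0.62, a mean of -0.64 ± 0.07 (n = 3), but -0.33 when its 2 probes were averaged. Zkscan5 (array name Zfp95) averaged -0.67 ± 0.25, Zfp536 -0.61 ± 0.13, Zfp263 -0.59 ± 0.27 and Zfp61 -0.56 ± 0.16, each on 2 arrays.

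Zfp57 also fell. Its level was 6.64, 6.37 and 6.84 in TKO cells, against 7.09, 6.74 and 7.16 in J1 cells, and the ratio was -0.38 ± 0.07 (SD, n = 3, adjusted p = 0.0061 by limma). TKO was the lower line on every array, although the ranges of the lines overlap across arrays. Zfp462 had a ratio of -0.33 ± 0.19 (n = 2, adjusted p = 0.052) and -0.08 when its 2 probes, which disagree in sign, were averaged. Zfp36l1 stood at -0.30 ± 0.29 (adjusted p = 0.063), Zfp143 at -0.26 ± 0.13 (adjusted p = 0.10) and Zfp207 at -0.14 ± 0.06 (adjusted p = 0.20), none of which passed the test.

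Of the 5 genes higher in TKO, Zfp330 and Zfp423 lie on chromosome 8. Zfp330 had 11.42, 12.12 and 12.08 in TKO cells, against 10.98, 11.25 and 11.73 in J1 cells, a ratio of 0.55 ± 0.28 (SD, n = 3, adjusted p = 0.0035). Zfp423, a regulator of fat cell commitment, had a ratio of 0.25 ± 0.11 (adjusted p = 0.049). RNA ratios of chromosome 8 genes leaned the same way, with a median of 0.17 and 38.5% called higher among 444 genes with a promoter entry there, and the chromosome's part in these 2 calls was not tested. Zfp90 and Zfp612, also on chromosome 8, were called lower, at -0.39 ± 0.09 (n = 2) and -0.38 ± 0.12 (n = 3). The other 3 were Zfp318 at 0.40 ± 0.17, Zfp185 at 0.30 ± 0.13 and Zfp64 at 0.26 ± 0.07 (SD, n = 3 each). Zfp185 encodes a LIM domain protein of the actin cytoskeleton. The calls of Zfp185, Zfp64 and Zfp423 were each lost when at least 1 array was left out (adjusted p from 0.065 to 0.19), and the 2 passing probes of Zfp64 disagreed in sign.

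**Figure D5:**
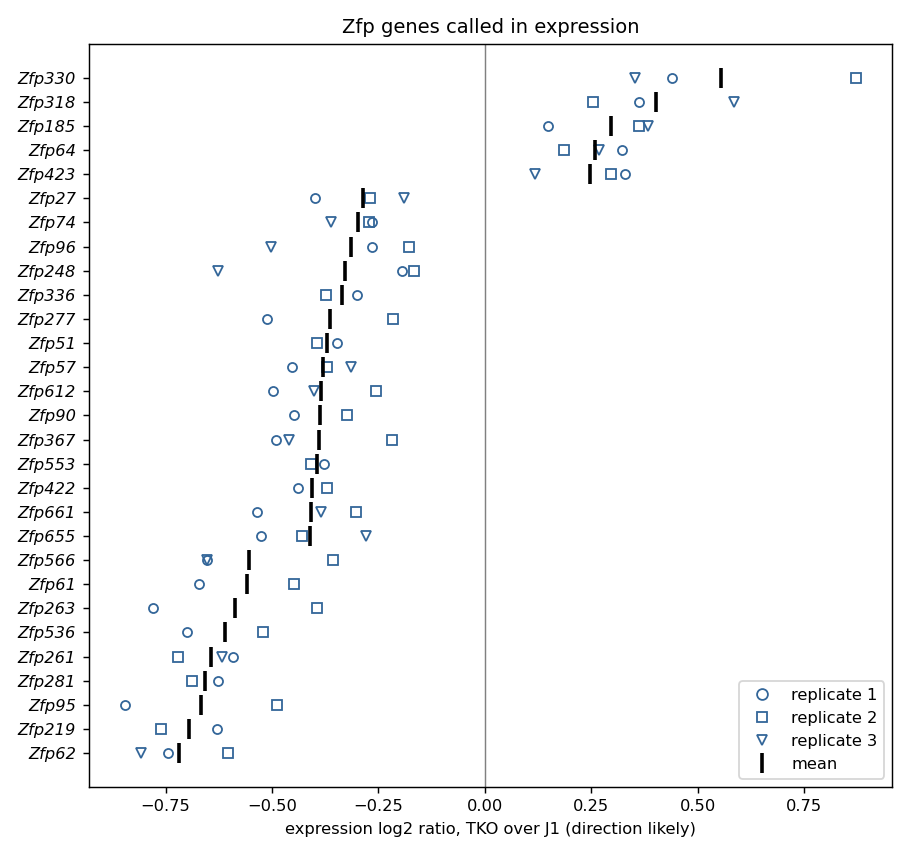
The expression log2 ratio (TKO over J1, likely direction, x axis) is shown for the 29 Zfp genes called in expression, by the brightest probe of each. Each replicate has its own symbol, and a bar marks the mean. The 24 lower genes lie below 0 on every array that measured them, and the 5 higher genes lie above 0 on 3 arrays.

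The corepressors through which KRAB proteins act were measured beside them. Of 20 listed genes 19 were on the array and 18 were tested, with a median of 0.06. Of the 18, 5 were called lower and 2 higher, where the background over all genes tested was 16.5% lower and 16.6% higher. Cbx5 and Cbx1, which encode heterochromatin proteins, had ratios of -0.65 ± 0.15 and -0.61 ± 0.14 (n = 2 each), while Cbx3, of the same family, was higher at 0.30 ± 0.18 (n = 3). The deacetylase Hdac1 had -0.60 ± 0.44 (n = 2), and the chromatin remodeller Chd3 had 0.48 ± 0.09 (n = 3). Trim28 itself stood at 0.36 ± 0.31 (n = 2, adjusted p = 0.059) and Setdb1 at -0.03 ± 0.19 (n = 3), neither of which passed the test.

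Markers of cell state also differed between the lines, and their part in the Zfp result was not tested. In such bulk RNA, fewer cells of a type and less RNA per cell cannot be told apart. Of 8 ES cell markers 5 were tested, and 3 were called lower in TKO: Sox2 at -0.82, Pou5f1 at -0.72 and Esrrb at -0.45. Tdgf1 at -0.21 and Zfp42 at 0.15 were not called (adjusted p = 0.27 and 0.42 by limma, n = 2 each). Over all genes tested, 16.5% were called lower and 16.6% higher. All 4 tested primitive endoderm markers of 5 were higher, with Afp at 3.86, Dab2 at 2.38, Gata6 at 1.56 and Sox17 at 1.38, and so were the 3 tested fibroblast markers of 6. On the 2 arrays that measured them all, the mean log2 level of the endoderm markers ran from 8.94 to 9.02 in TKO cells, against 6.57 to 6.74 in J1 cells. For the fibroblast markers it ran from 8.51 to 8.52 in TKO cells, against 7.54 to 7.60 in J1 cells, and for the ES markers from 10.72 to 11.02 in TKO cells, against 11.23 to 11.31 in J1 cells. None of the 3 trophoblast markers on the array passed the background filter.

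Clustered and isolated genes had like RNA ratios. The tested clustered genes had 10 of 34 lower (29.4%) and 1 higher (2.94%), with a median of -0.13, and the isolated genes had 14 of 62 lower (22.6%) and 4 higher (6.45%), with a median of -0.14. Over all genes tested, 16.5% were called lower and 16.6% higher. Per array the clustered mean lay below the isolated mean by 0.03 ± 0.03 (difference -0.03, SD over 3 arrays), with arrays from -0.06 to -0.01. That difference turned to 0.01 with median centring in place of loess. Fewer clustered genes were well above background: 24 of 55 (43.6%) in TKO cells and 33 of 55 (60.0%) in J1 cells, while among isolated genes it was 57 of 87 (65.5%) in TKO cells and 61 of 87 (70.1%) in J1 cells. In the chromosome 7 cluster from Zfp84 to Zfp146, 3 of 6 tested genes were called lower.

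MeDIP ratio and RNA ratio were not ordered alike across Zfp genes. Over 82 gene names with both values, which share the 2 lines and not the arrays, Spearman's rho was -0.12 and Pearson's r -0.06, given as a description across genes that are not independent. Among 18 genes called on the labelled TKO side in MeDIP, 4 were lower (22.2%) and 1 higher in RNA. Among 28 called on the labelled J1 side, 3 were lower (10.7%) and 2 higher, and among 36 with no MeDIP call 11 were lower (30.6%) and 2 higher. The background was 16.5% lower and 16.6% higher, and the differences between these small groups were not tested. The 2 highest MeDIP promoters and the lowest had little RNA difference. Their RNA ratios were -0.13 ± 0.15 for Zfp654, 0.05 ± 0.10 for Zfp111 and 0.03 ± 0.18 for Zfp617 (SD, n = 3 each), none of which passed the test. RNA levels of Zfp654 and Zfp111 were low, with a mean log2 intensity of 6.46 and 6.50. The RNA ratios of other high MeDIP promoters varied. Zfp9, which passed the filter through TKO alone, stood at 0.23 ± 0.18 in RNA and was not called (adjusted p = 0.087 by limma). With Agilent's processed signals it stood at 0.91 (adjusted p = 0.00024 by limma), but its RNA level was also low, at a mean log2 intensity of 6.18. Zfp90 was called lower, at -0.39 ± 0.09 (n = 2). Zfp318 was on the labelled TKO side in MeDIP and higher in TKO RNA, Zfp219 on the labelled J1 side and lower in TKO RNA, and Zfp330 on the labelled J1 side, at -0.23 ± 0.17, and higher in TKO RNA.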

How the data were processed

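The scanner files of the MeDIP promoter arrays and the expression arrays were used. Spot intensities (processed, mean and background signals) were made by the authors with Agilent Feature Extraction 8.5 per the submitters' processing notes, and per the file headers with version 8.5 for MeDIP and expression replicate 1 and 7.5 for expression replicates 2 and 3. Per the file headers the deposited processed signals were background-subtracted and dye-normalized, linearly for MeDIP and by LOWESS for expression. The authors deposited log10 ratios (red over green, TKO over J1 for MeDIP), which were used to check direction, and an averaged log10 expression table, whose values correlated with the ratios here at r = 0.92 over genes. No source used here names a genome build for the probes.

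MeDIP ratios were log2 of processed red over green, without control and outlier spots, centred on each array's median and averaged per gene name. Gene names with at least 3 probes were tested with limma 3.58.1 (R 4.3.3), parts 1 and 2 apart, with adjustment over both together. Expression signals were corrected with normexp (offset 50) and loess, and the brightest probe per gene was tested where it was well above background in at least one line on all 3 arrays. Composite array names were counted as their own entries, and a gene was not counted as its own neighbour. The expression probe of Zfp422 was assigned to its chromosome 6 locus by accession. On simulated data, limma recovered 67% (part 1) and 71.5% (part 2) of 200 MeDIP changes of 0.2, and 34.5% and 84.5% of 200 expression changes of 0.5 and 1 over 7672 genes. The MeDIP simulation changed 200 of 6819 or 6814 entries, while 56.7% of entries were called in the data. The expression simulation held only genes measured on 3 arrays. These rates therefore do not carry over directly to the tests reported. Named genes were those with the 8 highest and 8 lowest ratios with all arrays on one side, those past both MeDIP thresholds, the extremes of 5 clusters (the 4 largest and 1 of the 7 tied next) and a list of known genes. The members, lists and tests were chosen with earlier results of these data known. The number of arrays limits the precision. Alternatives covered background correction, normalization, probe summary and filters, cluster distance, slides and leaving out each array.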

Additional observations from a re-analysis of the deposited data

Results flagged for a closer look

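Of 42 sets of 7 array values checked for 1 array far from the rest, 3 stood out, and about 5% of such checks would by chance. Zfp445 on part 2 was at 0.89 on replicate 5, with the next array at 0.36. Zfp62 on part 2 was at 0.42 on replicate 3, with the next at 0.20. Zfp108 on part 1 was at -0.27 on replicate 6, with the next at -0.09.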

How the results depend on the processing

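No paired analysis was possible because each array's ratio already holds both lines, and the 2 promoter parts tile different genes. Across alternatives 122 values stayed within 1.5 times the count or 1 SD over arrays of the value reported, which for the small clustered minus isolated differences can still be a large share, and 25 did not. Of these, 2 turned sign, both clustered minus isolated differences. Normexp correction took the MeDIP calls to 11 on the labelled TKO side (0 with size) and 28 on the labelled J1 side, and the clustered minus isolated difference on part 2 to -0.042. The median of Zfp promoters was -0.060 with loess and also -0.060 with probes above background alone. Using only probes within 1000 bp of a start, chosen after seeing the data, gave 14 calls on the labelled TKO side and a median of -0.080. For expression, Agilent's processed signals gave a median of -0.27. Median centring gave 0 higher, 3 lower, a median of -0.18 and a clustered minus isolated difference of 0.0060, a turned sign against -0.03. With no filter on dim probes the median was -0.056. Clusters within 200 kb gave -0.067 and clusters of at least 3 genes -0.064 for that difference. Chosen after seeing the data, leaving out chromosome 8 gave 3 higher, and keeping genes measured on 3 arrays gave 12 lower and a median of -0.064. Leaving out 1 array in turn gave 28 to 34 calls on the labelled TKO side and 36 to 41 on the labelled J1 side in MeDIP. In expression it gave 2 to 4 higher, 11 to 24 lower, a median of -0.13 to -0.059 and a clustered minus isolated difference of -0.055 to -0.032. Without replicate 1 or 2, genes measured on 2 arrays were not tested, among them 12 of the 24 lower genes and none of the 5 higher ones. The slide could not be fitted as a block on part 1, where 1 slide code repeats, and on part 2 it gave 34 and 43 calls over both parts.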
